A study of Oryza sativa Japonica Group with 8 samples.

Results

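Tail-to-tail overlapping locus pairs are neighbouring transcribed loci that run towards each other on opposite strands and overlap at their 3′ ends. Pairs were chosen by position alone: 1 plus-strand and 1 minus-strand locus on the same chromosome, each of 300 bp or more, overlapping by 1 bp or more, with neither nested inside the other. This rule gave 1805 pairs, made of 1793 plus-strand and 1794 minus-strand loci, out of 41805 loci in the table and 38124 loci of 300 bp or more. The pairs thus hold 9.41% of the loci of that length. Of these loci, 12 on the plus and 11 on the minus strand belong to more than 1 pair, so the pairs are not fully separate from each other. The table pairs no locus with a gene name, and 0 of its identifiers were found in the reference gene table, so pairs are given by identifier and position in Release 7 of the MSU rice annotation.

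The samples are polyadenylated RNA from greenhouse-grown japonica rice, read by strand-specific single-end sequencing. There were 8 groups with 1 library each: flower buds taken before flowering, flowers taken on the day of flowering, flag leaves (the last leaf below the panicle) and roots, each from before and from after flowering, milk grains (grains still filling) and mature seeds. The leaf and root libraries are called pre-flowering and post-flowering here. The leaf and root libraries of each period mix several stages. No genotype beyond the japonica subspecies and no treatment is labelled. With no gene names, the organs could not be checked by marker genes. With 1 library per group no difference here has a replicate check and no statistical test was made.

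In convergent genes, transcription of each gene runs towards the end of the other, and mature transcripts that cross the meeting point carry stretches complementary to each other. Such transcripts are known as cis-natural antisense pairs. In plants they can form double-stranded RNA that is cut into small RNAs, and a salt-stress pair in Arabidopsis is a textbook case in which one partner lowers the other. Convergent RNA polymerases can also hinder each other, while many convergent pairs are simply expressed side by side. The table gives the span of each locus and no exons, so an overlap of spans need not be an overlap of mature transcripts.

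One library stood apart from its label. Over the 3587 loci in pairs, the after-flowering library labelled as roots had a Spearman correlation of 0.98 with post-flowering leaves and 0.94 with pre-flowering leaves, but 0.65 with pre-flowering roots. These are descriptions across loci, which share libraries and scaling. It is called the root-labelled after-flowering library here, and results that rest on it are given with and without it. From the value of 1 read at the shortest loci (about 100 bp) on the plus strand, depth relative to mature seeds was 1.65 in pre-flowering roots, 1.94 in milk grains, 2.04 and 2.85 in pre- and post-flowering leaves, 2.41 in flowers and 2.56 in flower buds. It was 7.79 in the root-labelled after-flowering library. Absolute depth is unknown.

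Most overlaps were short next to the loci that form them. The median overlap was 412 bp, with quartiles of 98 and 1229 bp, and the median pair shared 21.7% of the span of its shorter locus. The overlap was under 100 bp in 483 pairs, 100 to under 300 bp in 310, 300 to under 1000 bp in 466 and 1000 bp or more in 546. In 446 pairs it covered over 50% of the shorter locus. Loci in pairs had a median span of 3783 bp, against 2517 bp for all loci of 300 bp or more. Pairs per 1000 loci of that length ranged from 39.1 on chromosome 11 to 54.7 on chromosome 2.

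The longest overlap, 60846 bp on chromosome 4, came from 2 loci of unusual span. P_XLOC_022249 covers 7877971 to 7950042 on the plus strand and M_XLOC_023008 covers 7889197 to 7960491 on the minus strand. The plus locus ranged from 11.8 FPKM in milk grains to 24.5 in flower buds, and the minus locus from 32.2 FPKM in flowers to 70.8 in the root-labelled after-flowering library. FPKM is the number of fragments per kilobase of transcript, not of locus span, scaled to the reads mapped in the library. Of the pair, the minus locus was the higher in all 8 libraries. Loci over 20000 bp numbered 44 among loci in pairs and 321 among all loci of 300 bp or more, and whether each is 1 gene is not given.

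The lower limit of the rule cuts through a continuous range of spacings. In 3 pairs the overlap was exactly 1 bp, and in 3 further convergent pairs the loci abutted with no overlap and fell outside the rule. The members of the pairs at 1 bp had means over the 8 libraries of 2.13 and 9.92 FPKM, 32.6 and 21.4 FPKM, and 41.3 and 1.56 FPKM, plus strand first. The abutting pairs had means of 143.5 and 29.5 FPKM, 0.635 and 103 FPKM, and 12.1 and 0.201 FPKM. At the length limit, the pair with the shortest member (305 bp) had means of 0.798 and 98.5 FPKM. The pair just outside, with a member 1 bp under the limit, had 31.5 and 1.06 FPKM.

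Loci in tail-to-tail pairs were expressed at moderate levels. The median of their mean FPKM over the 8 libraries was 11.4, with quartiles of 2.999 and 33.5, against a median of 7.93 for all loci of 300 bp or more. Loci in convergent neighbours that do not overlap (a gap under 1000 bp, 2509 pairs) had a higher median of 14.8 FPKM. Loci in pairs that overlap head-to-head at their 5′ ends (1360 pairs) had a median of 3.45 FPKM, and those in nested opposite-strand pairs (2099 pairs) 4.28 FPKM. None of these differences was tested. By library, the median of the plus-strand members ran from 4.41 FPKM in mature seeds to 8.20 in flower buds, and that of the minus-strand members from 7.55 in mature seeds to 10.2 in pre-flowering leaves.

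The balance between the strands differed with overlap length. For overlaps under 100 bp the median of the mean FPKM was 13.9 for plus-strand and 11.8 for minus-strand members. It was 8.999 and 13.3 FPKM at 100 to under 300 bp, 8.09 and 12.4 FPKM at 300 to under 1000 bp, and 10.5 and 15.6 FPKM at 1000 bp or more. Within pairs, the median log2 ratio of plus over minus (on FPKM + 1, averaged over libraries) was -0.033, -0.086, -0.29 and -0.53 from the shortest to the longest class. In the longest class the minus-strand member was the higher in 325 of 546 pairs (59.5%), against 52.1% of convergent neighbours without overlap. Exchanged partners were not counted here. Over all loci of 300 bp or more the medians were 7.71 FPKM on the plus and 8.18 FPKM on the minus strand.

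The strands also differed in scale. At loci of about 100 bp, 1 read was worth 7.55% to 10.9% more FPKM on the minus than on the plus strand of the same library. With minus-strand values divided by that ratio, the medians from the shortest to the longest class were 0.018, 0.0011, -0.24 and -0.43. The minus-strand member was then the higher in 313 of 546 pairs of the longest class (57.3%), against 50.6% of convergent neighbours without overlap. In the longest class the corrected median was below 0 in all 8 libraries, from -0.53 in pre-flowering leaves to -0.28 in milk grains, and on 9 of 12 chromosomes, from -0.94 to 0.57. The 8 libraries hold the same 546 pairs, and levels of loci in pairs correlate between libraries (Spearman 0.59 to 0.98). They are thus not separate checks. Head-to-head pairs with overlaps of 1000 bp or more gave a corrected median of 0.24, over 140 pairs. The median spans of plus-strand and minus-strand members were close in the longest class, at 4807 and 4974 bp. A cause of the imbalance was not tested.

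**Figure D1:**
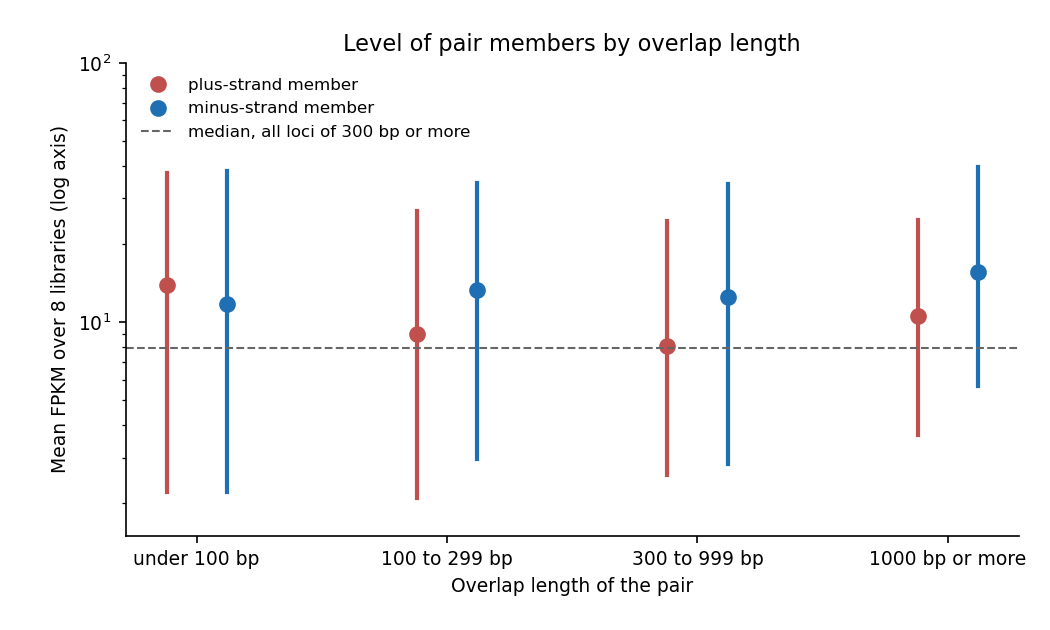
Mean FPKM over the 8 libraries (log axis) of plus-strand (red) and minus-strand (blue) members by overlap length; points are medians over loci, bars span the quartiles and the dashed line is the median of all loci of 300 bp or more, 7.93 FPKM. The medians are 13.9 and 11.8 FPKM under 100 bp and 10.5 and 15.6 FPKM at 1000 bp or more.

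The most abundant pair of each overlap class, by the mean of its lower member, shows how differently partners can behave. Under 100 bp this was P_XLOC_016375 with M_XLOC_017106 on chromosome 2 (32683364 to 32686163 plus, 32686077 to 32686828 minus, 87 bp shared). The plus locus stood at 107 FPKM in flower buds, 116 in flowers, 727 and 294 in pre- and post-flowering leaves, 29.3 in pre-flowering roots, 284 in the root-labelled after-flowering library, 27.4 in milk grains and 8.07 in mature seeds. The minus locus stood at 11.02, 17.7, 11.9, 8.12, 437, 4.03, 51.8 and 438 FPKM in the same libraries. Its partner was thus high where the plus locus was low, in pre-flowering roots, milk grains and mature seeds, and the Pearson correlation of log2(FPKM + 1) was -0.86.

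In the class of 100 to under 300 bp it was P_XLOC_018693 with M_XLOC_019509 on chromosome 3 (12869417 to 12871418 plus, 12871282 to 12873556 minus, 137 bp shared). On the plus strand the locus was present everywhere, from 262 FPKM in the root-labelled after-flowering library to 1288 in milk grains. Its partner was at 1464 FPKM in milk grains, 145 in flower buds and 71.7 in flowers, but at 1.62 in mature seeds, 0.569 and 0.471 in pre- and post-flowering leaves, and listed at 0 in both libraries labelled roots. In mature seeds the plus locus remained at 1068 FPKM. The correlation was 0.60, and it was 0.27 without milk grains and 0.83 without mature seeds.

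The 300 to under 1000 bp class was led by P_XLOC_026876 with M_XLOC_027686 on chromosome 5 (16859683 to 16861702 plus, 16861351 to 16862883 minus, 352 bp shared). Its plus locus was at 6907 FPKM in post-flowering leaves and 7984 in the root-labelled after-flowering library, 2752 in pre-flowering leaves, and 204 and 85.6 in pre-flowering roots and mature seeds. The minus locus varied far less, from 1582 FPKM in pre-flowering leaves to 5429 in milk grains. In mature seeds and pre-flowering roots, where the plus locus was lowest, the minus locus was at 1794 and 1909 FPKM. The correlation was 0.15, and it was 0.33 without the root-labelled after-flowering library and -0.063 without mature seeds.

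In the class of 1000 bp or more, P_XLOC_012581 (23737256 to 23782743, plus) and M_XLOC_012915 (23740091 to 23783531, minus) on chromosome 12 shared 42653 bp. The plus locus ranged from 73.5 FPKM in the root-labelled after-flowering library to 329 in milk grains. Its partner was at 835 FPKM in pre-flowering roots and 194 to 385 FPKM in 6 other libraries, but at 3.41 FPKM in mature seeds. The plus locus stood at 263 FPKM there.

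Joint detection of partners varied between libraries. The pairs with both members at 1 FPKM or more numbered 1242 in flowers, 1234 in flower buds, 1142 in milk grains, 1072 in pre-flowering roots, 1036 in the root-labelled after-flowering library, 1029 and 1018 in pre- and post-flowering leaves, and 892 in mature seeds, the shallowest library. As shares of the 1805 pairs these run from 49.4% to 68.8%. All other combinations of a plus-strand and a minus-strand member of the set (every partner exchanged for every other one) gave 49.9% and 68.3% in the same libraries, and differed from the pairs by under 1 percentage point in each of the 8 libraries.

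In 544 pairs (30.1%) both members reached 1 FPKM in all 8 libraries, against 30.2% of the other combinations. The share was 28.8%, 28.4%, 28.1% and 34.1% from the shortest to the longest overlap class. Levels also differed between the classes, and the other combinations were not counted by class. In 78 pairs each member reached 1 FPKM somewhere but never in the same library as its partner (4.32%, against 4.46% of the other combinations). Sharing a 3′ end thus went with joint detection about as often as any pairing of the same loci did.

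Levels of partners showed little relation within a library. Across the 1805 pairs, the Spearman correlation between the FPKM of the plus-strand and the minus-strand member lay between 0.0059 in the root-labelled after-flowering library and 0.044 in flowers. For convergent neighbours without overlap it lay between 0.093 and 0.15. These values are across pairs, which share libraries.

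Partners followed each other across organs no more closely than exchanged partners did. Correlations were taken as Pearson r of log2(FPKM + 1) over the 8 libraries, for the 1413 pairs in which both members had a mean of at least 1 FPKM. The other 392 pairs had a member below that mean, including 19 in which both were below. The median r was -0.033, with quartiles of -0.41 and 0.41. Over 1978235 other combinations of the same members the median was -0.016, with quartiles of -0.40 and 0.40. The points of each r are 8 libraries, which share a scaling and a plant source, and without the root-labelled after-flowering library the median was -0.046. After rescaling the libraries to equal sums both medians were 0.13, and without mature seeds they were 0.0091 and -0.0038, so the sign depends on the scaling and on that library.

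The tails of the distribution were also close to those of exchanged partners. Pairs with r of 0.7 or more numbered 153 (10.8%, against 9.33% of the other combinations), and pairs with r of -0.7 or less numbered 103 (7.29%, against 7.62%). Both members had their highest value in the same library in 223 pairs (15.8%, against 14.9%). With libraries grouped into inflorescence, flag leaf, root and seed, and the root-labelled after-flowering library left out, the highest values fell in the same organ in 407 pairs (28.8%, against 28.9%). Of these, 200 pairs were highest in seeds, 140 in flag leaves, 37 in inflorescences and 30 in roots. Exchanged partners were not counted organ by organ, so whether partners tend to share a given organ cannot be read from these counts.

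Other arrangements of opposite-strand loci gave other medians. Convergent neighbours without overlap had a median r of 0.015 over 1919 pairs and nested pairs 0.086 over 1232. Head-to-head overlapping pairs had a median of 0.36 over 756 pairs, against 0.023 for exchanged partners of that set, and 26.1% of them reached an r of 0.7. Their highest value fell in the same organ in 41.3% of pairs, against 29.0% of exchanged partners. The head-to-head median was 0.33 without the root-labelled after-flowering library. Where the lower member had a mean of 20 FPKM or more, the medians were -0.027 for 230 tail-to-tail and 0.43 for 47 head-to-head pairs. Exchanged partners of these pairs gave 0.017 and 0.14. Head-to-head pairs with overlaps of 1000 bp or more had a lower median of 0.14 over 107 pairs, against -0.0085 for their exchanged partners. The difference between arrangements was not tested.

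**Figure D2:**
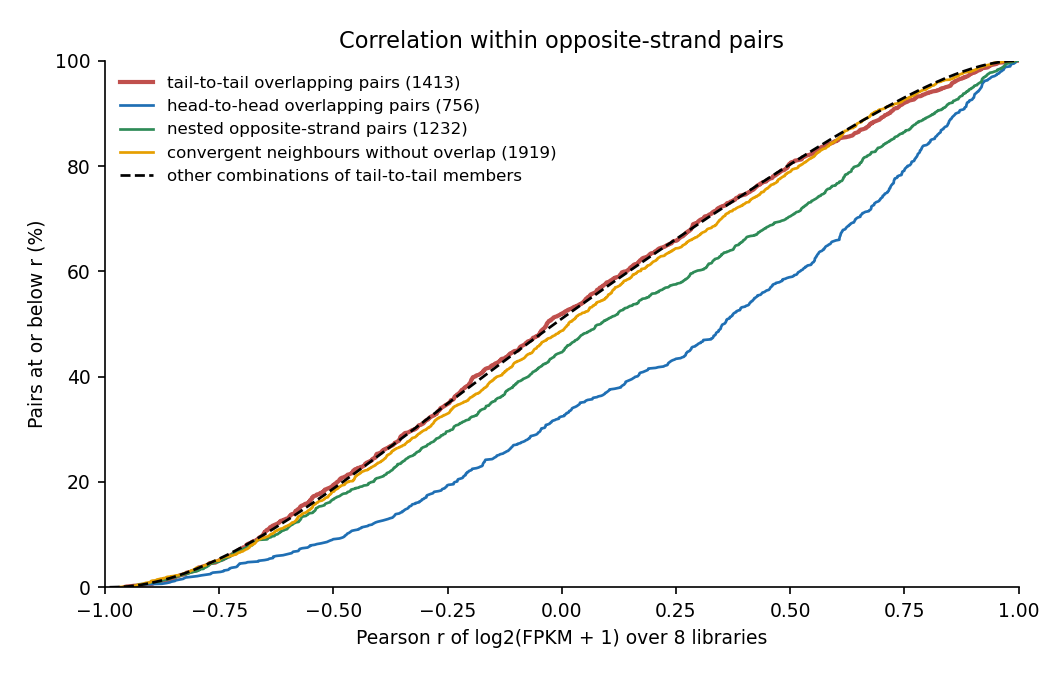
Cumulative share of pairs (vertical axis, %) at or below each Pearson r of log2(FPKM + 1) over 8 libraries (horizontal axis), by arrangement, with the number of pairs in brackets. The red curve of tail-to-tail pairs (median -0.033) lies on the dashed curve of all other combinations of the same members (median -0.016), and the blue curve of head-to-head pairs (median 0.36) lies to the right.

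Overlap length went with small shifts of r. The median was 0.057 under 100 bp (341 pairs), -0.041 at 100 to under 300 bp (235 pairs), -0.028 at 300 to under 1000 bp (372 pairs) and -0.080 at 1000 bp or more (465 pairs). Exchanged partners within each class gave -0.018, -0.017, -0.012 and -0.0098. The share of pairs with r of -0.7 or less was 5.28% in the shortest class and 9.03% in the longest, where exchanged partners gave 8.10% and 7.88%. The share with r of 0.7 or more was 13.8% in the shortest class and 9.25% in the longest, against 9.35% and 10.01% of exchanged partners. For the pairs whose overlap covered over 50% of the shorter locus the median r was -0.12 over 332 pairs, 11.1% had an r of -0.7 or less (7.69% of exchanged partners) and 12.3% an r of 0.7 or more (9.84%). Exchanged partners of those pairs gave a median of -0.01, and the 1081 pairs with a smaller share of overlap had a median of -0.023. Quartiles span about 0.8 in each class, which is the spread of single pairs and not the precision of a median. The shifts were not tested.

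**Figure D3:**
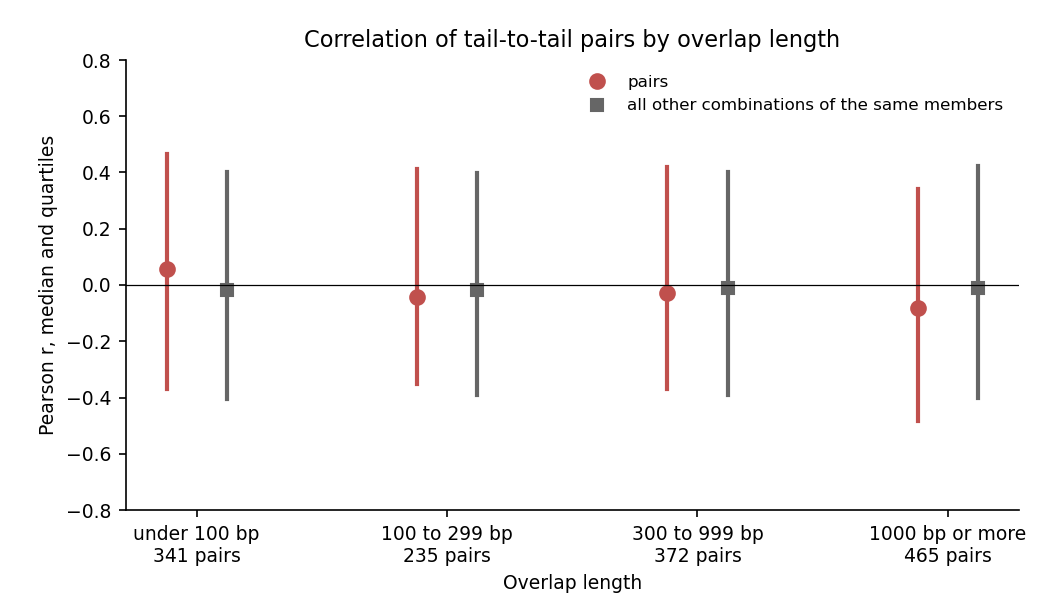
Pearson r of log2(FPKM + 1) over 8 libraries by overlap length for pairs (red circles) and for all other combinations of the same members within the class (grey squares); points are medians and bars span the quartiles. The pair medians run from 0.057 to -0.080, and the bars of pairs and exchanged partners overlap almost wholly in each class.

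Individual pairs lay at both ends of the range. The lowest r among pairs whose members both reached 10 FPKM and both ranged at least 4-fold was -0.96, for P_XLOC_017449 and M_XLOC_018269 on chromosome 3 (850731 to 852123 plus, 852040 to 857242 minus, 84 bp shared). The plus locus was at 96.7 FPKM in pre-flowering roots, 46.1 in mature seeds, 20.3 in flower buds, 20.2 in milk grains and 14.8 in flowers. In the pre- and post-flowering leaves it was at 0.0568 and 0.0485 FPKM, and it was listed at 0 in the root-labelled after-flowering library. Its partner was highest in exactly those libraries, at 82.7, 120 and 129.5 FPKM, and at 10.2 to 32.0 FPKM in the other 5. Leaving out any 1 library kept r between -0.98 and -0.94. The leaf libraries and the root-labelled after-flowering library correlated at 0.93 to 0.98 (Spearman, over loci in pairs). Leaving out 1 of these keeps others like it, so it checks little.

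After it came P_XLOC_000219 and M_XLOC_000996 on chromosome 1 (1957533 to 1961640 plus, 1957761 to 1977191 minus, 3880 bp shared), with an r of -0.94. The plus locus stood at 16.4 FPKM in mature seeds, 12.6 in flower buds, 11.5 in flowers and 5.61 in milk grains, and under 1 FPKM in all leaf and root libraries. The minus locus stood at 130 to 274 FPKM in the leaf and root libraries and at 11.9 to 29.2 FPKM in the reproductive ones. The 2 members therefore divided vegetative from reproductive libraries with no overlap of their ranges.

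The next, P_XLOC_013349 and M_XLOC_014060 on chromosome 2 (1457113 to 1461493 plus, 1461491 to 1468260 minus, 3 bp shared), had an r of -0.92 that rested on mature seeds. There the plus locus was at 0.805 FPKM and the minus locus at 61.9 FPKM. In the other 7 libraries the plus locus held 12.2 to 20.7 FPKM and the minus locus 10.97 to 17.2 FPKM. Without mature seeds r was 0.37.

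At the other end, P_XLOC_017524 and M_XLOC_018331 on chromosome 3 (1623883 to 1624264 plus, 1624217 to 1624655 minus, 48 bp shared) had an r of 0.997. Both were found almost solely in mature seeds, at 14.3 and 13.02 FPKM. The plus locus was listed at 0 in the other 7 libraries and the minus locus in 6, with 0.209 FPKM in milk grains, so r rests on 1 library.

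In contrast, P_XLOC_027731 and M_XLOC_028561 on chromosome 5 (25474799 to 25478182 plus, 25476707 to 25484371 minus, 1476 bp shared), had an r of 0.985. The plus locus was at 12.4 FPKM in milk grains, 10.8 in mature seeds, 4.23 in pre-flowering roots, 3.38 in flower buds, 3.23 in flowers and 0.0359 in post-flowering leaves, and was listed at 0 in the other 2 libraries. On the minus strand the values were 157, 121, 41.4, 62.6, 46.1 and 8.54 FPKM in the 6 named libraries, and at 11.3 FPKM in pre-flowering leaves and 7.51 in the root-labelled after-flowering library. The minus locus was at least 8-fold higher on the FPKM + 1 scale throughout, as the smallest gap was 3.02 on the log2 scale. Leaving out any 1 library kept r between 0.98 and 0.99.

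Another pair was leaf-like in both members: P_XLOC_000114 and M_XLOC_000879 on chromosome 1 (855255 to 857950 plus, 857756 to 860676 minus, 195 bp shared), with an r of 0.985. Its plus locus was at 102 FPKM in the root-labelled after-flowering library, 60.1 in post-flowering leaves and 7.32 in pre-flowering leaves, and at 1.01 FPKM or less elsewhere. Its partner was at 14.4, 7.37 and 3.85 FPKM in those libraries and at 0.211 FPKM or less elsewhere. Without the root-labelled after-flowering library r was 0.973, but both leaf libraries, which it resembles, remain in that value.

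The higher member changed between organs about as often in the pairs as in the other combinations of members. In 293 pairs (16.2%) the plus-strand member was at least 4-fold above its partner in 1 library and at least 4-fold below it in another, on the FPKM + 1 scale. The share was 15.7% for the other combinations of members, 12.7% for convergent neighbours without overlap and 7.28% for head-to-head pairs. It was 15.3%, 14.8% and 13.5% in the shorter overlap classes and 20.1% in the longest, with no count of the other combinations by class. In contrast, the plus-strand member was at least 4-fold higher in all 8 libraries in 98 pairs, the minus-strand member in 145, and 156 pairs were never 4-fold apart. The other combinations were not counted in these ways.

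Each library was a side of many such switches. Among the 293 pairs, mature seeds stood at least 4-fold opposite to another library in 207, the root-labelled after-flowering library in 189, pre-flowering roots in 184, post- and pre-flowering leaves in 172 and 170, flower buds in 145, flowers in 136 and milk grains in 124. With the root-labelled after-flowering library left out, mature seeds were a side in 198 and pre-flowering roots in 180. The number of switching pairs was 197 without mature seeds, 221 without pre-flowering roots and 267 to 283 without any 1 of the other 6 libraries. In milk grains the plus-strand member was the one at least 4-fold higher in 80 switching pairs and the minus-strand member in 44. In mature seeds the counts were 94 and 113. Switches of the other combinations were not counted by library, so whether any of these counts is particular to the pairs is not known.

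The widest switch over all values was that of P_XLOC_006250 and M_XLOC_006573 on chromosome 10 (13492784 to 13496772 plus, 13496720 to 13503816 minus, 53 bp shared). The minus locus was at 28454 FPKM in mature seeds and listed at 0 in milk grains, and at 6.34 FPKM in flower buds, 6.04 in flowers, 75.5 and 61.6 in pre- and post-flowering leaves, 12.2 in pre-flowering roots and 10.2 in the root-labelled after-flowering library. The plus locus was at 6.53 FPKM in mature seeds, its lowest value, 15.5 in milk grains and 19.4 to 60.4 FPKM elsewhere. The minus locus stood above its partner in mature seeds and in both leaf libraries and below it in the other 5. A listed 0 can be a failed estimate in tables of this kind, so the value in milk grains bounds nothing. The log2 ratio of plus over minus ranged over 15.93 in all 8 libraries and over 14.09 where both members were above 0, less than the 15.53 of the next pair.

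In P_XLOC_034336 and M_XLOC_034984 on chromosome 7 (23398209 to 23400655 plus, 23400631 to 23401957 minus, 25 bp shared), inflorescences stood opposite to vegetative organs. Its plus locus was at 912 FPKM in flowers, 55.3 in flower buds, 11.2 in milk grains and 1.98 in mature seeds, and at 0.728 FPKM or less in leaf and root libraries. Its partner was at 168 FPKM in pre-flowering roots, 125 and 26.8 in post- and pre-flowering leaves and 91.4 in the root-labelled after-flowering library, and at 1.21 FPKM or less in the inflorescence and seed libraries. In no library were both members above 2 FPKM.

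In P_XLOC_006996 and M_XLOC_007334 on chromosome 10 (21027454 to 21032225 plus, 21032137 to 21032540 minus, 89 bp shared), the plus locus was at 3107 FPKM in milk grains, 437 in mature seeds and 35.4 FPKM or less elsewhere. The minus locus, of 404 bp, was at 1.52 FPKM in milk grains, listed at 0 in mature seeds, and highest at 16.4 FPKM in the root-labelled after-flowering library. Without that library the minus locus reached 7.14 FPKM, in post-flowering leaves, where the plus locus was at 2.42. That is under the 4-fold limit, so this switch rests on the root-labelled after-flowering library.

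**Figure D4:**
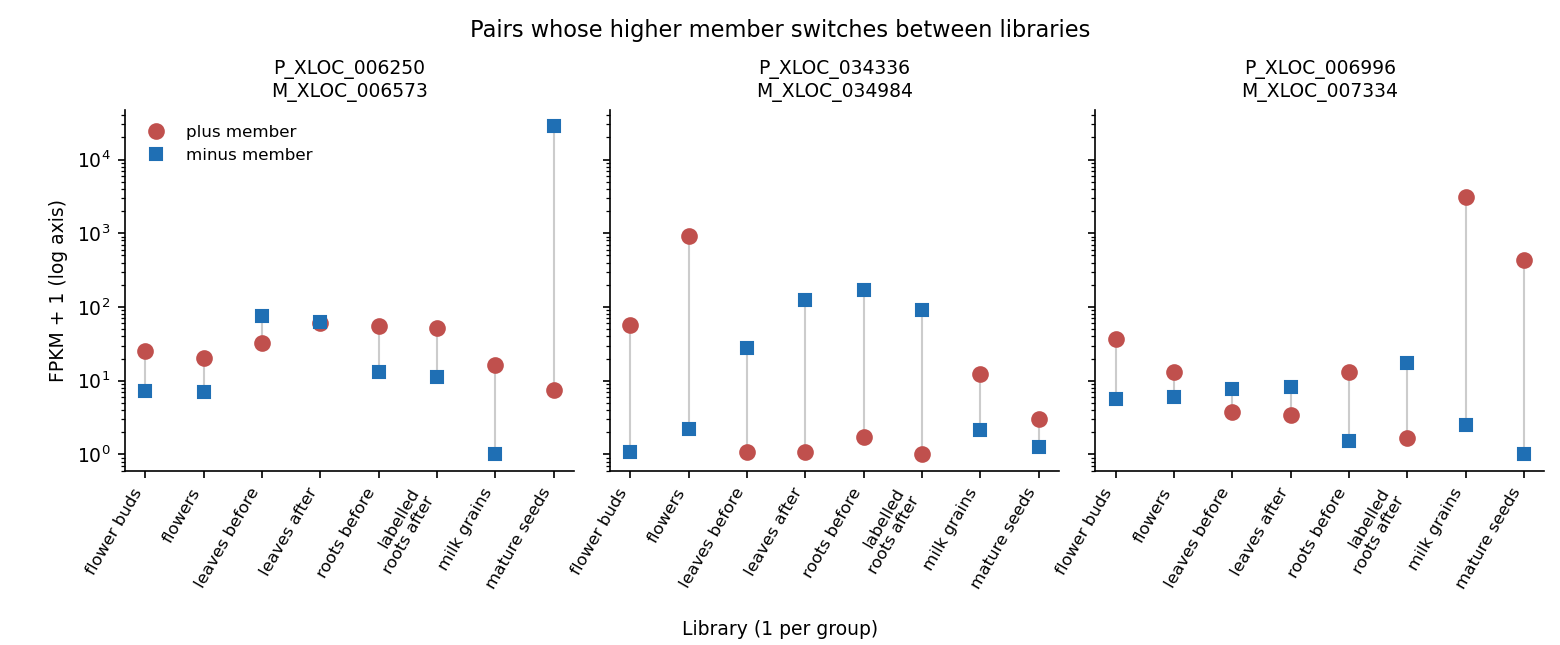
FPKM + 1 (log axis) of the plus-strand (red circles) and minus-strand (blue squares) member in each of 8 libraries, for the 3 pairs with the widest switch; grey lines join the members of a pair in 1 library. In the left panel the minus locus reaches 28454 FPKM in mature seeds, in the middle panel the plus locus leads in flower buds and flowers and the minus locus in leaves and roots, and in the right panel the plus locus reaches 3107 FPKM in milk grains.

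Beside an abundant locus, the partner stood at about the level that any other locus of the set had. Where the higher member was at 1000 FPKM or more (162 values in 79 pairs), the lower member had a median of 8.24 FPKM, and over all combinations of a plus-strand and a minus-strand member the median was 7.498 FPKM. As a share of the higher member these are 0.458% and 0.294%. Where the higher member was at 10 FPKM or more, the lower had a median of 4.08 FPKM over 10105 values, against 3.95 FPKM over all combinations. The share falls as the limit on the higher member rises by construction. Of the 162 values, 56 were under 0.1%, of which 9 were listed at 0.

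The stage comparisons asked whether partners move together as organs develop. A locus was counted as changed when (FPKM + 1) in the later library was at least 4-fold above or below the earlier one, among loci with at least 1 FPKM in either. Between flower buds and flowers, 58 of 3096 loci in pairs were higher in flowers (1.87%) and 58 were lower (1.87%), where 2.44% and 2.83% of all loci of 300 bp or more were. The median log2 ratio was -0.043 over loci in pairs and -0.056 over all. Both members changed in 3 of 1354 pairs: in 1 both were higher, and in 2 they moved apart. Exchanged partners changed together in 0.0712% and apart in 0.0714% of combinations, and the pairs in 0.0739% and 0.148%.

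The pair in which both were higher was P_XLOC_039975 and M_XLOC_040550 on chromosome 9 (17480776 to 17482158 plus, 17481645 to 17482614 minus, 514 bp shared). The plus locus went from 0.0825 FPKM in flower buds to 46.1 in flowers, and the minus locus was listed at 0 in flower buds and stood at 10.6 FPKM in flowers. Of the pairs that moved apart, P_XLOC_028208 on chromosome 5 (29312557 to 29313073) went from 36.5 to 3.90 FPKM. Its partner at 29312987 to 29314868, sharing 87 bp, went from 28.1 to 461 FPKM, and the plus locus was listed at 0 in the other 6 libraries. In the other pair, M_XLOC_001150 on chromosome 1 (3274096 to 3278279) went from 38.3 to 6.45 FPKM and its partner at 3272738 to 3277246 from 0.925 to 7.69 FPKM. All 3 pairs were named after their values were seen, 1 of them also by the naming rule.

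The naming rule takes stage moves only among pairs with both members above 0 in both libraries and at 10 FPKM in one. The largest joint fall there was on chromosome 2 (20816042 to 20823552 plus, 20822936 to 20824900 minus), where the plus locus went from 96.8 FPKM to 25.7 in flowers and the minus locus from 32.5 to 5.40. The largest joint rise (29782933 to 29786584 plus, 29786026 to 29789844 minus, also chromosome 2) paired 30.2 and 57.9 FPKM with 32.5 and 1755 FPKM. In each of these, 1 member missed the 4-fold limit.

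In flag leaves, 98 of 2832 loci in pairs rose at least 4-fold after flowering (3.46%) and 79 fell by as much (2.79%), where 3.95% and 2.88% of all loci of 300 bp or more were. Both members rose in 2 of 1140 pairs, and in 0 pairs did both fall or move apart. Exchanged partners changed together in 0.204% and apart in 0.198% of combinations. At a 2-fold limit 47 pairs (4.12%) moved together and 29 (2.54%) apart, against 3.33% and 3.29% of exchanged partners. Between flower buds and flowers that limit leaned the other way, with 0.812% together and 1.33% apart, against 1.25% and 1.24%. The first pair that rose was P_XLOC_032284 with M_XLOC_032976 on chromosome 7 (1133505 to 1135464 plus, 1133854 to 1142273 minus, 1611 bp shared). It went from 3.40 to 36.0 FPKM on the plus strand and from 9.77 to 59.0 FPKM on the minus strand.

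That pair was leaf-like in both members: in the root-labelled after-flowering library they stood at 21.7 and 43.2 FPKM, and in the other 5 libraries at 1.57 FPKM or less. The other pair that rose lies on chromosome 12 (2927908 to 2934839 plus, 2934325 to 2935619 minus). Both members were listed at 0 before flowering and stood at 7.68 and 4.67 FPKM after. By the naming rule, the widest opposite move fell just short of 4-fold: on chromosome 6 (22710362 to 22713470 plus, 22710845 to 22714666 minus, 2626 bp shared), the plus locus went from 41.2 to 9.62 FPKM and the minus locus from 359 to 1427 FPKM. The largest joint fall, on chromosome 2 (17880886 to 17886564 plus, 17886468 to 17889823 minus), was from 557 to 174 FPKM and from 56.9 to 19.9 FPKM.

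Between the libraries labelled roots, any direction rests on the doubted label. There 400 of 3114 loci in pairs were at least 4-fold higher in the after-flowering library (12.8%) and 398 lower (12.8%), where 11.1% and 16.9% of all loci of 300 bp or more were. Both members were higher in 18 of 1361 pairs, both lower in 18, and they moved apart in 38. Together these are 2.65% for the same and 2.79% for opposite directions, against 3.24% and 3.24% of exchanged partners. Rescaling moved the median log2 ratio of all loci of 300 bp or more from 0.057 to 0.22 with equal sums and to -0.13 by median ratio.

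Among pairs above 0 in both libraries, the strongest joint rise there was P_XLOC_009989 with M_XLOC_010431 on chromosome 11 (28058341 to 28063966 plus, 28062551 to 28064661 minus, 1416 bp shared), from 0.435 to 64.5 FPKM and from 0.418 to 54.8 FPKM. In post-flowering leaves the same loci stood at 53.1 and 66.3 FPKM. The strongest joint fall was P_XLOC_017842 with M_XLOC_018668 on chromosome 3 (4606929 to 4616357 plus, 4616278 to 4618384 minus, 80 bp shared), from 20.9 to 0.846 FPKM and from 18.2 to 0.0496 FPKM. The widest opposite move was on chromosome 7 (2797691 to 2801364 plus, 2801326 to 2804315 minus, 39 bp shared), where the plus locus stood at 14.1 and 890 FPKM and the minus locus at 27.9 and 0.611 FPKM. In pre-flowering leaves that plus locus was at 1734 FPKM and its partner was listed at 0.

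Between milk grains and mature seeds, 268 of 3023 loci in pairs rose at least 4-fold (8.87%) and 464 fell by as much (15.3%), where 10.1% and 16.5% of all loci of 300 bp or more were. Higher loci made up 36.6% of the changed loci in pairs, and 22.7% after rescaling to equal sums, which moved the median log2 ratio of all loci of 300 bp or more from -0.18 to -0.58. Both members were higher in 12 of 1281 pairs, both lower in 29, and they moved apart in 30. The same direction thus made up 3.20% of pairs and opposite directions 2.34%, against 3.37% and 2.996% of exchanged partners. After rescaling to equal sums, both were higher in 6 pairs, both lower in 45 and opposite in 22. Under that scaling 162 loci in pairs rose and 551 fell, and exchanged partners were not counted. Whether partners moved together more than exchanged ones cannot be read from these counts.

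Among pairs above 0 in both seed libraries, the strongest joint rise was P_XLOC_029452 with M_XLOC_030183 on chromosome 6 (7077927 to 7079749 plus, 7078557 to 7082551 minus, 1193 bp shared). The plus locus went from 2.41 FPKM in milk grains to 36.1 in mature seeds and the minus locus from 0.270 to 11.9, and in the other 6 libraries they lay at 3.001 to 7.35 FPKM and 0.227 to 1.16 FPKM. The strongest joint fall was P_XLOC_029954 with M_XLOC_030699 on chromosome 6 (12654037 to 12659479 plus, 12654937 to 12660370 minus, 4543 bp shared). There the minus locus went from 7031 to 220 FPKM and the plus locus from 49.8 to 0.317 FPKM. Outside the grains the plus locus was above 0 only in pre-flowering roots, at 0.228 FPKM, and the minus locus reached at most 14.9 FPKM, in pre-flowering leaves.

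The widest opposite move was on chromosome 2 (5505016 to 5508425 plus, 5508343 to 5509549 minus, 83 bp shared). The plus locus stood at 66.9 FPKM in milk grains and 2.13 in mature seeds, and the minus locus at 1.13 and 75.1 FPKM. In the other 6 libraries the plus locus was at 8.38 to 65.3 FPKM and the minus locus at 4.38 FPKM or less, so mature seeds alone reversed their order. Without mature seeds their r was 0.20, against -0.60 over all 8 libraries.

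**Figure D5:**
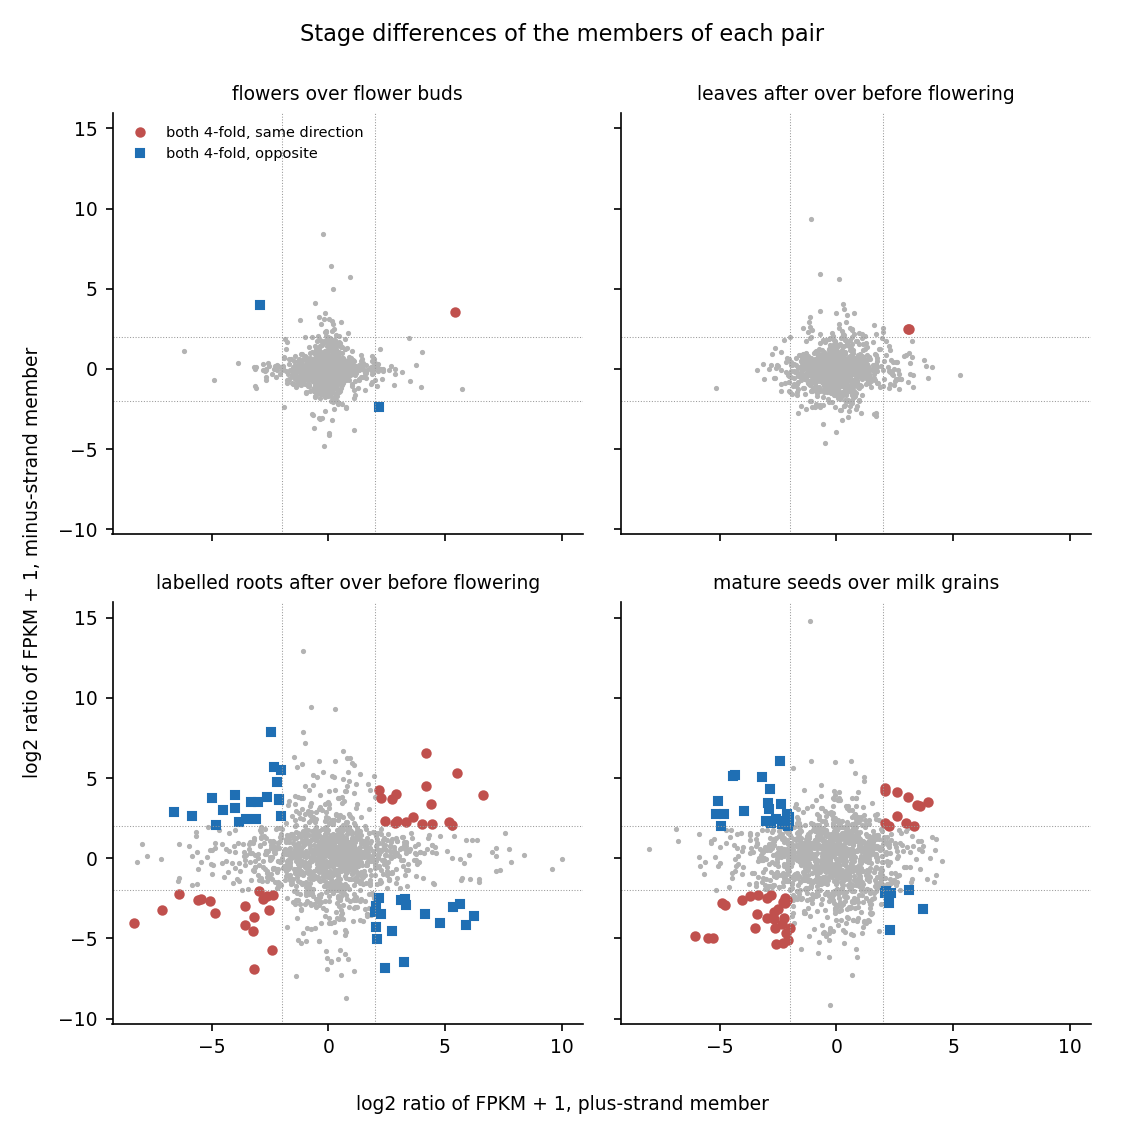
Log2 ratio of FPKM + 1, later over earlier library, of the minus-strand member (vertical axis) against the plus-strand member (horizontal axis), 1 point per pair, for 4 stage comparisons; red circles mark pairs with both members at least 4-fold changed in the same direction and blue squares those in opposite directions, and dotted lines mark the 4-fold limits. Red and blue points number 1 and 2 between flower buds and flowers, 2 and 0 in leaves (the 2 points lie almost on each other), 36 and 38 between the libraries labelled roots, and 41 and 30 between milk grains and mature seeds.

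The changes of partners showed little relation in size. Across pairs, the Spearman correlation of the log2 ratios of the plus-strand and the minus-strand member was 0.048 between flower buds and flowers, 0.035 in leaves, 0.0033 between the libraries labelled roots and -0.0024 between milk grains and mature seeds. These are over 1354, 1140, 1361 and 1281 pairs that share libraries. By overlap length, same-direction and opposite pairs were 12 and 12 in the longest class between the libraries labelled roots, and 14 and 9 between milk grains and mature seeds. They were 7 and 10, and 11 and 8, at 300 to under 1000 bp, 9 and 8, and 6 and 5, at 100 to under 300 bp, and 8 and 8, and 10 and 8, under 100 bp. Exchanged partners were not counted by class.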

How the data were processed

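The deposited table holds values of 41805 loci in 8 libraries, in FPKM as the authors named the unit. A stranded mRNA kit was used for all libraries, per the labels' protocols. Per the submitters' processing notes, TopHat, Cufflinks and Cuffdiff were used, with versions, settings and the assignment of reads in shared 3′ ends not given in the sources used here. Locus positions are on MSU Release 7, per the file headers. How the authors scaled the FPKM of each strand is not known.

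Pairs were found by position, and r was computed on log2(FPKM + 1) with Python 3.11.15, numpy 2.4.6 and scipy 1.17.1. Exchanged partners were enumerated in full, with no random draw. Both members needed a mean of 1 FPKM for r. Each value has 1 library, so precision is unknown. The steps were tested on simulated data. Named pairs are, by rule: the most abundant of each overlap class, the 3 highest and 3 lowest r (members reaching 10 FPKM and ranging 4-fold), the 3 widest switches, the largest joint and opposite stage moves among pairs above 0 in both libraries and reaching 10 FPKM, the longest overlap and those at 1 bp. The members, lists and rule were chosen with earlier results of these data known. Alternatives changed the pseudocount, level filter, scaling, fold limit, detection limit, minimum length and libraries. No sequence is shown, as no genome of this build was used here.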

Additional observations from a re-analysis of the deposited data

Results flagged for a closer look

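Some loci in tail-to-tail pairs moved one way in leaves and the other way between the libraries labelled roots, each by 4-fold or more. Of these, 22 loci fell in leaves after flowering and were higher in the root-labelled after-flowering library than in pre-flowering roots. The reverse held for 9 loci. These are 0.613% and 0.251% of the 3587 loci in pairs, where 0.38% and 0.383% of all loci of 300 bp or more moved in these ways. The difference was not tested, each of the 4 libraries is the only one of its label, and the root-labelled after-flowering library correlated at 0.98 (Spearman, over loci in pairs) with post-flowering leaves. In the same direction, 41 loci were higher in both comparisons (1.14%, against 1.04% of all loci of 300 bp or more) and 12 lower (0.335%, against 0.632%). In 0 pairs did both members belong to the loci of opposite moves.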

How the results depend on the processing

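The median r of pairs (-0.033) lay between -0.047 and 0.0091 under a pseudocount of 0.1, no filter or a filter of 5 FPKM, median-ratio scaling, Spearman, a minimum of 500 bp and leaving out any 1 library; its sign changed without mature seeds. Leaving out libraries other than the root-labelled after-flowering one, the strand correction of levels within pairs and the head-to-head alternatives were chosen after seeing the data; the strand correction of switching pairs, which gave 288, was planned. Equal sums gave 0.13, where exchanged partners also gave 0.13 and head-to-head pairs 0.43. By overlap class, medians were 0.041 to 0.12 under 100 bp and -0.079 to -0.071 at 1000 bp or more with a pseudocount of 0.1, Spearman and without the root-labelled after-flowering library. Equal sums and leaving out mature seeds, which changed the sign of the median over all pairs, were not run by class. Detection of both members at 5 FPKM gave 720 pairs in flower buds, 701 in flowers, 609 and 581 in pre- and post-flowering leaves, 576 and 558 in the libraries labelled roots, 631 in milk grains and 492 in mature seeds, where a limit of 0.1 FPKM gave 1375. Switching pairs numbered 602 at a 2-fold limit and 450 with a pseudocount of 0.1. At a 2-fold limit, pairs changed together and oppositely numbered 11 and 18 (flowers), 47 and 29 (leaves), 174 and 182 (libraries labelled roots) and 196 and 192 (seeds). For the libraries labelled roots these are 12.8% and 13.4%, against 13.1% and 13.05% of exchanged partners. For seeds they are 15.3% and 14.99%, against 15.75% and 15.4%. With a pseudocount of 0.1, pairs changed together and oppositely numbered 4 and 4, 9 and 2, 78 and 74, and 92 and 66 in the same order. As shares these are 0.295% and 0.295% (flowers), 0.79% and 0.175% (leaves), 5.73% and 5.44% (libraries labelled roots) and 7.18% and 5.15% (seeds). Exchanged partners gave 0.26% and 0.262%, 0.582% and 0.583%, 5.96% and 5.95%, and 7.07% and 5.93%. Equal sums gave 2 together in flowers and 4 in leaves, with no count of exchanged partners. No paired analysis was possible because each group has 1 library. Absolute depth is unknown, and mature seeds, the shallowest library, had the fewest pairs with both members detected.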
